A study of Glycine max with 6 samples.

Results

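VspA (Glyma.07G014500, chromosome 7) and VspB (Glyma.08G200100, chromosome 8), the soybean genes for the vegetative storage proteins, were followed in leaf RNA-seq. They were chosen by identifier and made up 2 of the 56044 genes in the count table of the Wm82.a2.v1 gene models. Leaf disks came from wild-type plants of the cultivar BR16, grown in soil in a greenhouse, with 3 libraries of plants at 20 days after germination (DAG; vegetative stage V3) and 3 libraries at 80 DAG (reproductive stage R7). No plant was treated or carried a transgene. The middle leaflets of the third and seventh trifoliate leaves were sampled, but it is not given which leaf belongs to which stage, so age, stage and leaf position cannot be told apart. The sample labels call both ages vegetative.

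Vegetative storage proteins are glycoproteins that soybean keeps in the vacuoles of leaf and stem cells, above all in the paraveinal mesophyll, a cell layer that links the veins with the photosynthetic tissue. They belong to a family of plant acid phosphatases, and their known role in soybean is to hold amino nitrogen while the plant has few sinks and to release it when pods and seeds draw on it. Their mRNAs are known to rise with jasmonate, wounding, sugars and the removal of pods, and to fall with phosphate and auxin.

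The smallest library held 10758425 counts and the largest 15883253, with 36691 to 39834 genes detected per library. Library 2 of 80 DAG stood somewhat apart from the others of its age. Its mean Pearson correlation with the 20 DAG libraries (log2 CPM over all tested genes, given as a description) was 0.612, against 0.559 and 0.545 for libraries 1 and 3. With the other libraries of its own age its mean correlation was 0.944, against 0.961 and 0.958 for libraries 1 and 3, a small gap. GmNAC030, a NAC transcription factor known to be induced in senescing soybean leaves, had 30.6 CPM in that library and 231 and 184 CPM in libraries 1 and 3, and GmNAC081, another such factor, had 17.7 CPM against 95.9 and 65.0 CPM. These genes were picked after their values were seen. The values of this library are therefore given separately wherever they touch a result. The labelled tissue was not checked against leaf markers, because no table used here pairs the marker genes with the identifiers of the count table.

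VspA mRNA, abundant in all leaves of 20 DAG, was not detected in any leaf of 80 DAG. The 20 DAG libraries held 4796, 8423 and 4515 raw counts of VspA, and each of the 3 libraries of 80 DAG held 0. Divided by the effective library size (a library's sum over tested genes, corrected by its TMM factor) and expressed as CPM, these are 511, 656 and 451 CPM at 20 DAG. The groups did not overlap, and library 2 was the highest of the 20 DAG libraries. A count of 0 allows up to 3 counts, which correspond to 0.163, 0.247 and 0.208 CPM in libraries 1, 2 and 3 of 80 DAG. Such limits, and the intervals below, cover counting error only.

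From a mean of 539 ± 105 CPM (SD, n = 3) at 20 DAG, VspA was at least 2620-fold lower at 80 DAG, computed against 3 counts in each library. The exact intervals, which reach higher, allow a smaller fold. The lowest 20 DAG library was still 1830 times the highest of these 3-count limits. The fall was called by the quasi-likelihood test of edgeR (adjusted p = 7.85e-05, Benjamini-Hochberg over the 30058 genes tested, threshold 0.05 with no fold change minimum). The fitted log2 fold change of −15.76 (standard error 0.56) depends on the small count that edgeR adds to each library and is no measure of the size of the fall. Changes of this kind were common between these leaves: 49.1% of the tested genes were called in either direction, 26.0% were called lower and 23.1% higher at 80 DAG, and 31.2% had 80 DAG values that all lay below those of 20 DAG. VspA passed the filter on low counts through its 20 DAG libraries alone, and so did VspB, whose values follow.

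VspB, which encodes the other subunit of the storage protein, also fell at 80 DAG but left a trace in some libraries. Its raw counts were 876, 2067 and 820 in the younger leaves and 1, 14 and 0 in the older ones. After scaling, these were 93.3, 161 and 81.9 CPM at 20 DAG, and 0.0543, 1.15 and 0 CPM at 80 DAG. As for VspA, library 2 was the highest at 20 DAG, and every 80 DAG library lay below every 20 DAG library.

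Mean expression of VspB was 112 ± 42.7 CPM (SD, n = 3) at 20 DAG and 0.402 ± 0.650 CPM (SD, n = 3) at 80 DAG, which is 279-fold lower. The lowest library of 20 DAG was 71.1 times the highest of 80 DAG. By the same edgeR test VspB had a log2 fold change of −8.27, with a standard error of 0.99 and an adjusted p of 0.00067. Library 2 of 80 DAG decided the size of the fall. Without it the remaining libraries held 1 and 0 counts. With 3 counts set for each of them, VspB was 604-fold lower. This is no lower bound, since the exact intervals reach higher, to 0.302 CPM in library 1 and 0.256 CPM in library 3. The fitted log2 fold change without library 2 was −11.45 (adjusted p = 0.000274).

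**Figure D1:**
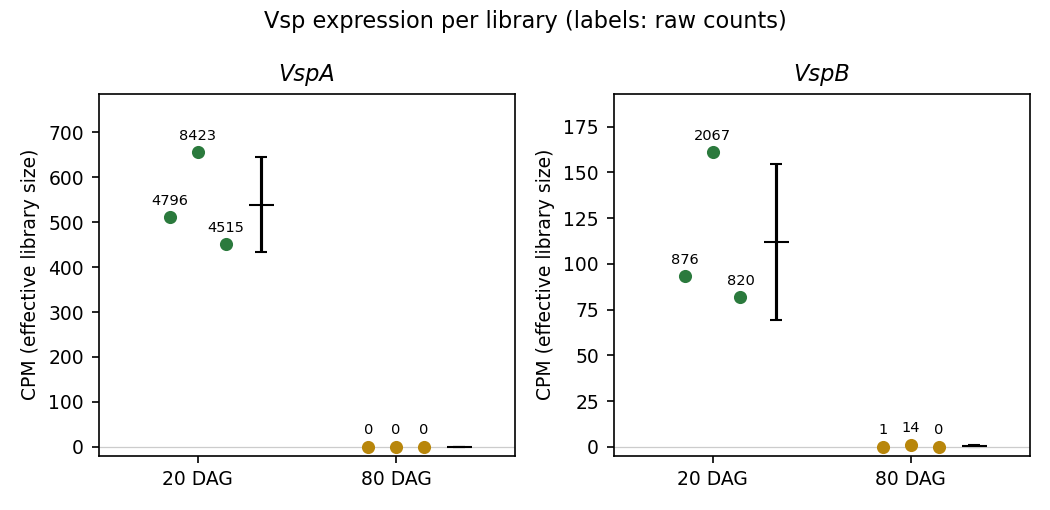
Expression of VspA and VspB in each library, in CPM of the effective library size on a linear axis from 0; points are libraries, numbers beside them are raw counts, and the black bar and whiskers are the mean ± SD over 3 libraries. VspA had 451 to 656 CPM at 20 DAG and 0 counts in all libraries of 80 DAG, and VspB had 81.9 to 161 CPM at 20 DAG and at most 14 counts at 80 DAG.

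The trace of VspB differed among the 80 DAG libraries by more than counting error. In library 2 its 14 counts gave 1.15 CPM with an exact Poisson 95% interval of 0.630 to 1.93 CPM, and in library 1 its single count gave an interval of 0.00137 to 0.302 CPM. In library 3 the count of 0 gave an interval of 0 to 0.256 CPM. Library 2 was thus the 80 DAG library with the highest VspB value and also the one with the lowest GmNAC030 and GmNAC081. Whether these differences are related was not tested.

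At 20 DAG both genes had their highest values in the same library. The highest 20 DAG library had 1.45 times the CPM of the lowest for VspA and 1.97 times for VspB, and the coefficient of variation over the 3 libraries was 19.5% and 38.1%. Pearson correlations of log2 CPM over the tested genes (a description) were 0.888 for 20 DAG libraries 1 and 2, and 0.931 for 1 and 3. For libraries 2 and 3 the value was 0.960, so library 1, and not library 2, was the least like the others. The spread within 20 DAG was small beside the difference between the ages for both genes.

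Together, VspA and VspB took 0.0465%, 0.0881% and 0.0496% of all counts in the libraries of 20 DAG. The Wilson 95% intervals of these shares were 0.0454 to 0.0478%, 0.0865 to 0.0898% and 0.0483 to 0.0509%, so that library 2 differed from the other 20 DAG libraries beyond counting error. At 80 DAG the shares were 6.3e-06% (Wilson 95% interval 1.11e-06 to 3.57e-05%), 0.000108% (6.41e-05 to 0.000181%) and 0% (0 to 3.11e-05%). For the last, 3 counts correspond to 2.43e-05%. The mean share fell by 0.0614 percentage points, from 0.0614 ± 0.0232% to 3.8e-05 ± 6.04e-05% (SD, n = 3 each; exact permutation test, two-sided, p = 0.1). This is the smallest p that 3 libraries against 3 can give. In whole-leaf RNA, fewer cells that express these genes and less mRNA per cell cannot be told apart.

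The next comparison asked whether both genes kept their proportion as they fell. Raw counts are not scaled to transcript length, so the proportion does not say which gene had more mRNA, but its change between libraries is free of length and of library size. VspA made up 84.6% of the counts of both genes in library 1 of 20 DAG (exact 95% interval 83.6 to 85.5%), 80.3% in library 2 (79.5 to 81.1%) and 84.6% in library 3 (83.6 to 85.6%). The proportion was lowest in library 2, where both genes were highest. At 80 DAG, library 2 alone held enough counts to bound the proportion. All 14 of its counts were VspB, and 0 of 14 has an exact 95% interval of 0 to 23.2% for VspA, below every library of 20 DAG.

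The single count of library 1 of 80 DAG was also VspB, with an interval of 0 to 97.5%, and library 3 had no count of either gene. On the log2 scale with 0.5 counts added, the VspA to VspB ratio was 2.45, 2.03 and 2.46 at 20 DAG and −1.58, −4.86 and 0 at 80 DAG. The 80 DAG ratios of libraries 1 and 3 are set by the added count. The mean difference between the ages was −4.46 (exact permutation test, two-sided, p = 0.1, the smallest this design allows), so a difference between the falls of both genes rests on library 2 of 80 DAG. The counting program and its treatment of reads that match related genes are not given, and reads shared by VspA, VspB and similar genes are of uncertain assignment.

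**Figure D2:**
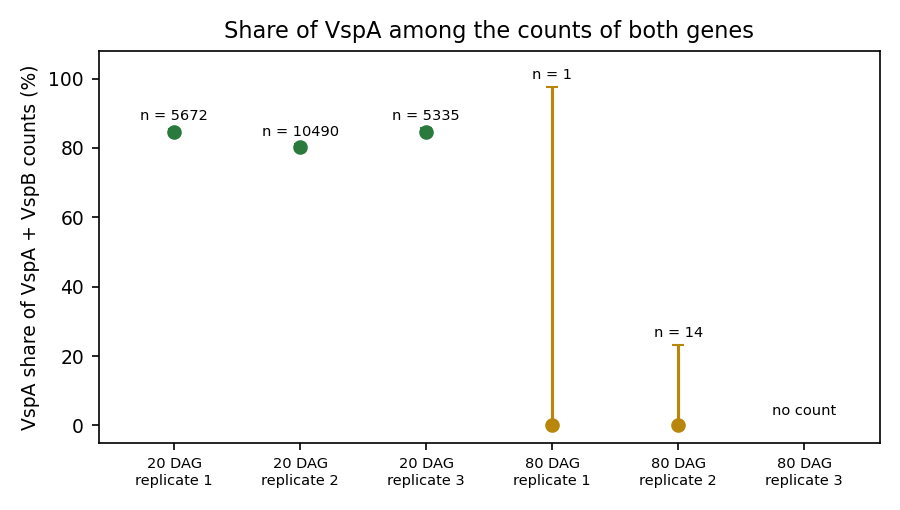
Percentage of VspA among the counts of VspA and VspB in each library, with exact 95% intervals; n is the number of counts of both genes. The 20 DAG libraries lay between 80.3% and 84.6%, library 2 of 80 DAG was at 0% with an upper bound of 23.2%, and the other 80 DAG libraries held 1 and 0 counts.

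Complete loss of counts at 80 DAG was uncommon, both for genes with as many counts at 20 DAG as VspA and over all tested genes. Over the whole table, 142 genes had at least 4515 counts in every 20 DAG library, the lowest count of VspA there, and VspA was the only one of them with a count of 0 in any 80 DAG library. Among all tested genes, 213 of 30058 had no count in all 3 libraries of 80 DAG. This is about the same share as 1 of 142, but that 1 is VspA itself, whose own counts set the cutoff. The 2 shares therefore cannot be compared as rates of loss. The cutoffs of 4515 counts and, below, of 820 and 14 counts were taken from the Vsp genes themselves. For VspB, 858 genes had at least 820 counts in every 20 DAG library, and 11 of these, VspA and VspB included, had no more than 14 counts in each library of 80 DAG. The share of all tested genes within this limit of 14 counts was not computed. All of these are comparisons of raw counts and not of mRNA levels between genes. In the fit across all tested genes, whose median log2 fold change was −0.02, VspA had the lowest fitted value and VspB was in place 178 from the lowest. For genes with 0 counts at 80 DAG this order follows the 20 DAG counts and the added count, and does not rank the size of the falls.

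**Figure D3:**
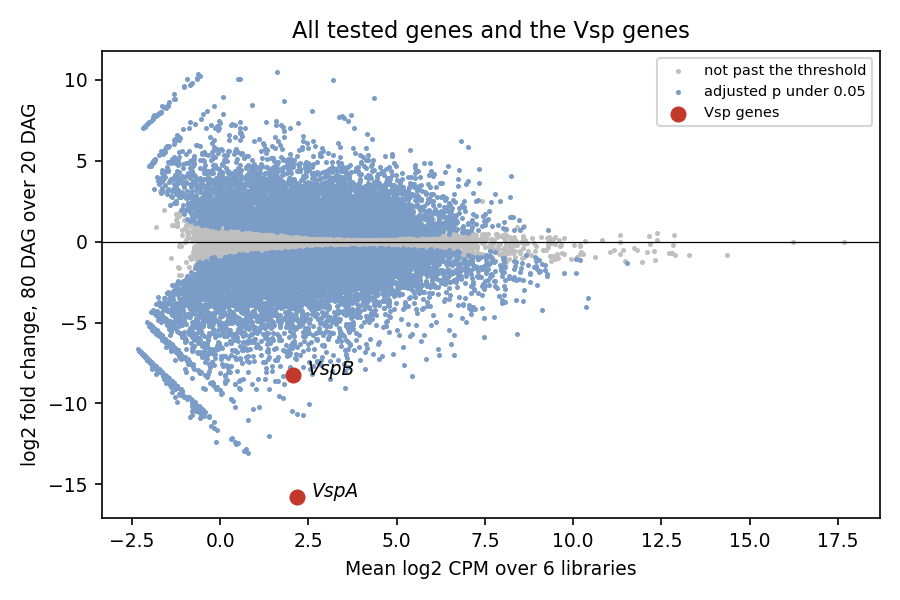
Fitted log2 fold change of 80 DAG over 20 DAG against the mean log2 CPM over 6 libraries for the 30058 tested genes, with genes at an adjusted p under 0.05 in blue and the Vsp genes in red. VspA (−15.76, a value that depends on edgeR's added count) lies below all other genes, and VspB is at −8.27.

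The genes beside each Vsp gene on its chromosome moved in both directions between the ages. Among the 20 gene models within 10 positions of VspA, by the order of identifiers, 10 had enough counts to be tested. Of these, 5 fell, 2 rose and 3 were not past the threshold, with a median log2 fold change of −0.69 and a range from −8.85 to 1.32. Over all tested genes 26.0% were called lower and 23.1% higher, so lower calls were more frequent among these 10 models than in the whole table, a difference that was not tested. The models directly after VspA were close to silent in all libraries. Those 1, 2 and 3 positions on had at most 3 counts in any library and the next had none, while the model directly before it had a log2 fold change of −0.42 with a standard error of 0.14 (edgeR adjusted p = 0.0377). A model 4 positions before VspA had 66, 16 and 53 counts at 20 DAG and, like VspA, 0 in each library of 80 DAG (adjusted p = 0.00511).

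Among the 20 gene models around VspB, 14 were tested, of which 4 fell, 2 rose and 8 were not past the threshold (median log2 fold change −0.24, range −12.38 to 7.18). The number that fell was near the 26.0% of all tested genes called lower. The model directly after VspB had 747, 524 and 494 counts in the younger leaves and 310, 726 and 174 in the older ones, and its groups overlapped (log2 fold change −0.94, standard error 0.60, adjusted p = 0.234). Its highest 80 DAG value was in library 2, as for VspB. At 4 positions after VspB, Glyma.08G200500 had 27.9 ± 7.12 CPM in the younger and 107 ± 10.5 CPM in the older leaves (SD over 3 libraries) and rose by 1.94 log2 units, with a standard error of 0.23 and an edgeR adjusted p of 0.00066. The widest contrast lay before VspB. A model 6 positions away had 585, 274 and 715 counts at 20 DAG and 0 in every 80 DAG library, whereas its neighbour Glyma.08G199400, 7 positions from VspB, went from 2, 0 and 1 counts in the younger leaves to 452, 126 and 142 in the older ones (edgeR adjusted p = 0.000363). The fitted values of −8.85, −12.38 and 7.18 belong to models with at most 3 counts per library at one age and, like that of VspA, depend on the added count. The functions of these models are not annotated in the tables used here, and the named ones were chosen after their values were seen.

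**Figure D4:**
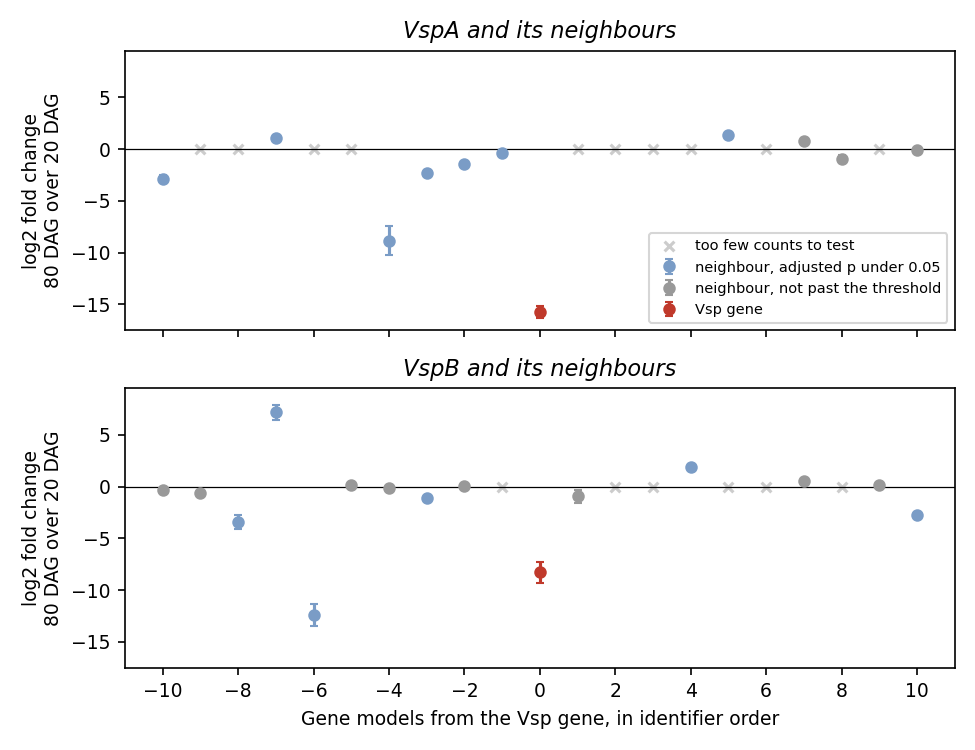
Log2 fold change of 80 DAG over 20 DAG (± standard error) for VspA, VspB and the gene models within 10 positions of each in the order of identifiers; crosses are models with too few counts to test. Both Vsp genes lie far below most of their neighbours, and around VspB the models 6 and 7 positions before it are at −12.38 and 7.18. The fitted values of VspA and of models with few or no counts at one age depend on edgeR's added count and do not rank the size of the changes.

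The expression profiles most like those of the Vsp genes were found by the Euclidean distance between mean-centred log2 CPM profiles (0.5 counts added) over the 6 libraries. Nearest to VspA was Glyma.13G304500, at a distance of 3.24, with 1044, 1583 and 1641 counts in the younger leaves and 1, 0 and 0 in the older ones. The 4 next genes were at 3.65 to 4.28 and had 0 counts in every 80 DAG library. Nearest to VspB was Glyma.11G228000, at a distance of 2.10, with 310, 290 and 304 counts in the younger leaves and 0, 3 and 0 in the older ones. In all 5 genes nearest to VspB, library 2 of 80 DAG held the most counts of its age, between 1 and 26, which their choice by likeness to VspB largely fixed. The Vsp genes were not among the nearest to each other, since their distance of 6.49 placed VspB 31st from VspA and VspA 792nd from VspB. The profiles were centred but not scaled. For genes with 0 or few counts in the older leaves, the distance thus depends on the counts in the younger leaves and on the added 0.5 counts. These places therefore do not show that VspA and VspB had unlike patterns. Both had their highest value in the same library of the younger leaves and fell to 0 or few counts in the older ones.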

How the data were processed

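RNA-seq of 6 leaf libraries was analysed. The authors made stranded, paired-end libraries from total RNA after removing ribosomal RNA, in biological triplicates. They deposited raw counts per gene model, without normalization; the submitters' processing notes name CASAVA 1.7, Bowtie2 and DESeq2, and the counting program and its strand setting are not given in the sources used here. All columns matched a sample title, from which groups and replicate numbers were taken.

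Counts were normalized with TMM, filtered with filterByExpr and tested with edgeR 4.0.16 (quasi-likelihood test, R 4.3.3), 80 DAG against 20 DAG, with Benjamini-Hochberg adjustment over all tested genes. Standard errors were obtained from the log2 fold change and the square root of the F statistic. Shares and ratios were tested with exact permutation tests (scipy 1.17.1). Alternatives used DESeq2 1.42.0, limma-voom (limma 3.58.1), other scalings and filters, the replicate number as a block, and each library left out. Counts of same-age libraries differed beyond sampling noise (chi-square per degree of freedom 7.74 to 49.2). The VspA and VspB genes, lists and tests were chosen with earlier results of these data known. Genes to be named were, by rule, VspA and VspB, neighbours within 10 positions, the 5 nearest profiles and the most abundant genes of 9 functional lists. These lists were defined by annotation text, which no table used here pairs with the identifiers, so 0 of them were analysed and only 2 rising and 2 falling identifiers are named beside VspA, VspB and the NAC genes. The reference gene table is of another assembly, so no coordinates or sequences are given.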

Additional observations from a re-analysis of the deposited data

How the results depend on the processing

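VspA and VspB kept their direction and their call under all 12 alternatives that gave a value, with adjusted p from 3.63e-35 to 0.00365 for VspA and from 7.1e-07 to 0.00469 for VspB (edgeR, DESeq2 and limma-voom). Their log2 fold changes ranged from −15.94 to −13.93 and from −11.45 to −7.63. With each library left out in turn they ranged from −15.94 to −15.60 and from −11.45 to −7.63, the lowest VspB value being that without library 2 of 80 DAG. That value, like those of VspA with a library left out, depends on the count that edgeR adds. A minimum of 10 counts in every library removed both genes. The mean difference of the log2 VspA to VspB ratio was −5.53 to −3.11 with a library left out and −3.95 with 1 count added. As an arithmetic share, VspA fell by 83.16 percentage points (exact permutation test, two-sided, p = 0.2, without the library that had no count). The change of the joint share was −0.0688 to −0.0480 percentage points with a library left out and −0.0648 with TMM-scaled totals. The number of genes called was 10744 to 16848 over its 13 alternatives, against 14758. With library size alone as the scale, the median log2 fold change over the tested genes was 0.21 in place of −0.02, and 7221 genes were called higher and 6063 lower at 80 DAG, against 6946 and 7812.

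Libraries of the same replicate number did not deviate together (correlations −0.218, −0.315 and 0.084). With the replicate block, the log2 fold change was −15.74 for VspA and −8.66 for VspB (adjusted p = 0.00365 for each, edgeR), 11702 genes were called, and the ratio and the joint share changed by −4.46 and −0.0614 (exact sign-flip permutation test, p = 0.25, the smallest that 3 pairs allow). It changed no call of VspA or VspB. The counts of the functional gene lists were not run, as the lists could not be matched. At 80 DAG the depth limits what can be said of the proportion of both genes.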
